A study of Mus musculus with 4 samples.

Results

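The genes described here are 8 members of the epidermal growth factor (EGF) receptor system, of 31053 genes listed in each library: the ligand genes Areg (amphiregulin), Ereg (epiregulin), Hbegf (heparin-binding EGF-like growth factor), Tgfa (transforming growth factor alpha) and Btc (betacellulin), and the receptor genes Egfr, Erbb2 and Erbb3. They were chosen by name, and each symbol matched 1 gene. Their transcripts were counted in single cells of mouse pancreas, in 4 libraries of 1 per group. All mice were C57BL/6 of wild-type (WT) genotype. The groups were saline after 2 days (S2D), caerulein after 2 days (C2D), saline after 6 weeks (S6W) and caerulein after 6 weeks of recovery (C6W). The labels call the caerulein groups pancreatitis and the saline groups inflammation-naïve. Caerulein acts like the gut hormone cholecystokinin, and in excess it injures acinar cells and inflames the pancreas. Ages and the number of animals in a library are not given in the sources used here. The cells had been sorted as DAPI-negative, and a 10x Chromium 3' assay counted each captured molecule through its unique molecular identifier (UMI).

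Ligands of the EGF receptor are made as precursors in the cell membrane and are cut free by proteases such as Adam17. Egfr binds all 5 ligands, Erbb3 binds neuregulins and has a weak kinase, and Erbb2 has no known ligand and pairs with the other receptors. In the mouse pancreas, signalling through Egfr takes part in the change of acinar cells toward duct-like cells during pancreatitis. Amphiregulin is also a known product of type 2 innate lymphoid cells, regulatory T cells and macrophages in tissue repair.

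Of the 5 ligand genes, 3 lie close together on chromosome 5 in the GRCm38 build (GENCODE vM21, matched by Ensembl identifier): Ereg at chr5:91074622-91093646 and Areg at chr5:91139599-91148432 on the plus strand, and Btc at chr5:91357261-91402994 on the minus strand. With Epgn, another ligand gene, they fall within 375531 bp. Tgfa lies at chr6:86195223-86275719 (plus). Egfr lies at chr11:16752203-16918158 (plus), Erbb2 at chr11:98412470-98437716 (plus) and Erbb3 at chr10:128567523-128589652 (minus). These genes and Hbegf are all annotated as protein coding.

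Promoter sequences were matched for 5 of the 8 members (Areg, Tgfa, Btc, Egfr and Erbb2). Those of Areg and Egfr are shown because the larger differences of a ligand and of a receptor at 2 days concerned these genes. Each line gives the 250 bases before the start of transcription from RefSeq (GRCm38.p6), at chr5:91139349-91139598 and chr11:16751953-16752202, both on the plus strand and written 5′ to 3′.
Areg promoter: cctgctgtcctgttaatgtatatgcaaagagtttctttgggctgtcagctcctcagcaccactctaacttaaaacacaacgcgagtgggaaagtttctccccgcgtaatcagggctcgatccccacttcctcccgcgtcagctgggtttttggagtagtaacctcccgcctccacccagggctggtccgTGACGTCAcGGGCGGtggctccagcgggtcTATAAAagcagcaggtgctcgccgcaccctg
Egfr promoter: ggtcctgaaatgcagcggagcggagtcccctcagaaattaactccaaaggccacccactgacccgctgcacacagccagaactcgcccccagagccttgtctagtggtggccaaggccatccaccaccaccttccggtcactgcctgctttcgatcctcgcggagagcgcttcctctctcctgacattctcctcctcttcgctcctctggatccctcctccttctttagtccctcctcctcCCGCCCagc
Capitals mark matches, on either strand, to the letters of the cyclic AMP response element TGACGTCA, the TATA box TATAAA and the GC box GGGCGG, which do not overlap each other here. The Areg window held TGACGTCA 61, GGGCGG 52 and TATAAA 31 bases before the start. The Egfr window held only GGGCGG of these, on the opposite strand, 9 bases before the start. Among 32851 mouse promoter windows of the same length, 1.55% held TGACGTCA, 12.4% TATAAA and 32.7% GGGCGG. A match describes the letters and is not evidence of binding.

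The libraries held 2623 to 5433 barcodes and 29145886 (S6W) to 71547194 (C2D) UMIs, and 3308 (S2D), 4637 (C2D), 2017 (S6W) and 2741 (C6W) cells were analysed. Pairs of libraries shared 3 to 22 barcodes. Cells were clustered without the members and named from marker genes, so that a name such as ductal-like is a marker class and not a lineage. Between C2D and the other libraries, different clusters held most of the acinar-like, ductal-like, fibroblast-like and macrophage-like cells, and C2D cells were deeper (a median of 20520 UMIs against 8630 in ductal-like cells of S2D, 22580 against 10810 in fibroblast-like cells and 14280 against 7798 in macrophage-like cells). A level is the number of UMIs of a gene in all cells of a class and library, per 1000000 UMIs outside digestive enzyme genes. Values in brackets are exact 95% intervals, and they cover counting error only. Each group had 1 library, which gives no measure of the spread between animals, and therefore no p-value is given.

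Each member but Ereg had a cell class of highest level that was the same in saline and caerulein libraries. Among named classes of at least 20 cells, Hbegf, Tgfa, Btc, Erbb2 and Erbb3 were at their highest level in ductal-like cells, Egfr in fibroblast-like cells and Areg in type 2 innate lymphoid (ILC2)-like cells. Fibroblast-like cells gave 93.8% of the Egfr UMIs in S2D and 82.2% in C2D, and 96.3% in S6W and 96.0% in C6W. Ductal-like cells gave 90.2% of the Hbegf UMIs in S2D and 51.9% in C2D, where they were 23.3% and 3.80% of cells. For Areg the main source by UMIs was another class in C2D: ILC2-like cells gave 75.7% of 948 UMIs in S2D, 54.1% of 619 in S6W and 79.7% of 816 in C6W, but 8.99% of 3583 in C2D, where macrophage-like cells gave 70.8%. For Erbb2 too the main source varied: ductal-like cells gave 69.8% of its UMIs in S2D and 54.2% in C6W, but fibroblast-like cells gave more in C2D (46.6% against 37.2%) and S6W (63.8% against 31.5%). Macrophage-like cells made up 50.8% of the C2D cells analysed. The part that dissociation and sorting have in these shares was not tested.

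**Figure D1:**
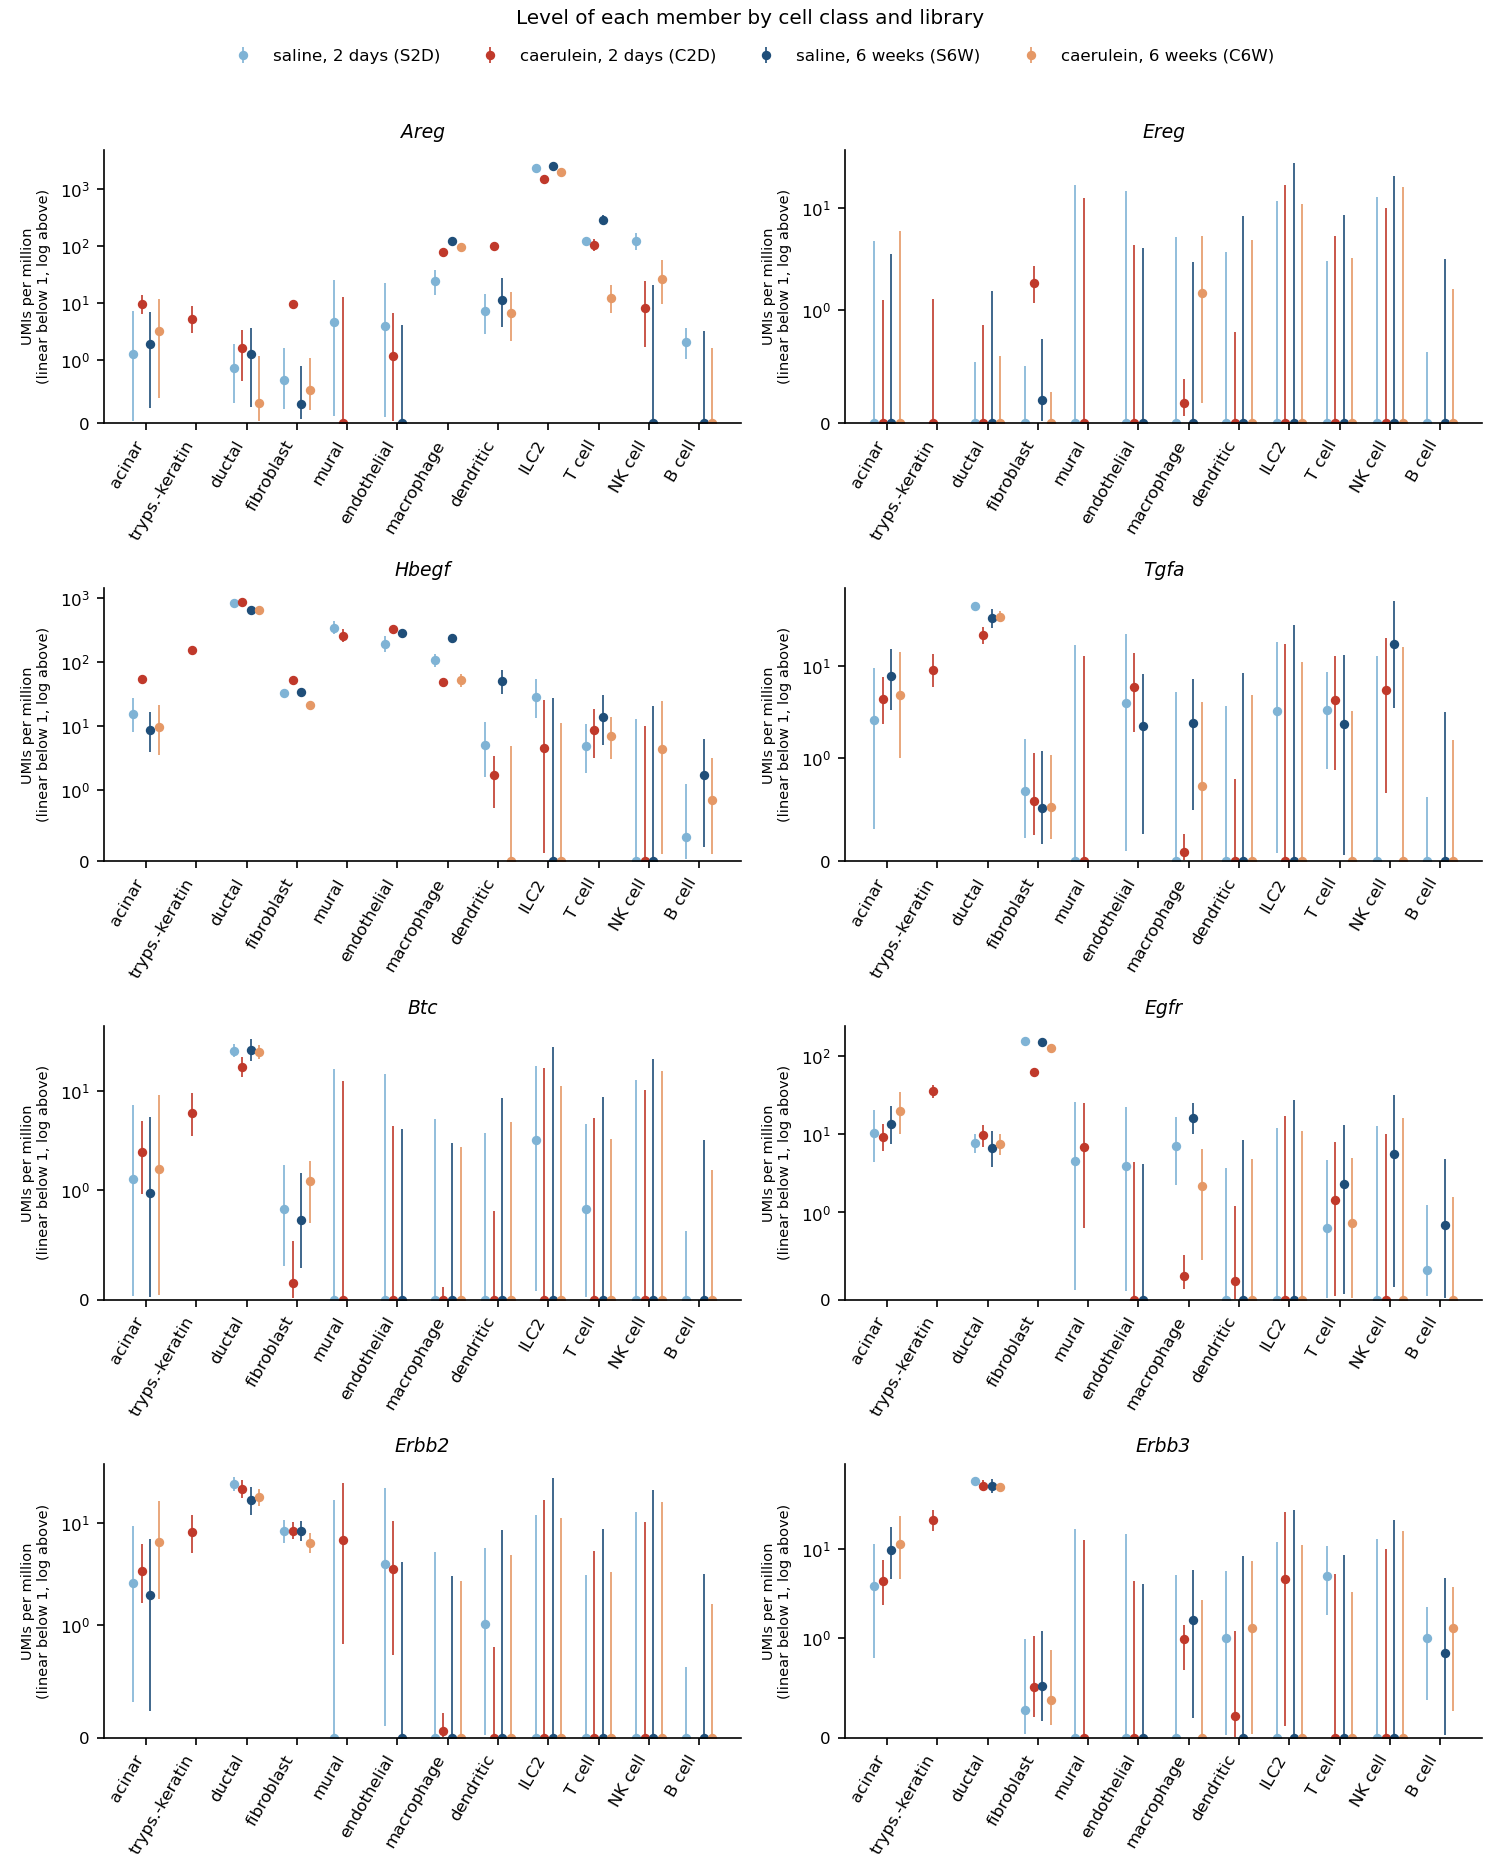
Level of each member (UMIs per 1000000 UMIs outside digestive enzyme genes, axis linear below 1 and logarithmic above) by cell class and library, with exact 95% Poisson intervals for counting error. The highest level is 2512 for Areg, in ILC2-like cells of S6W, 855 for Hbegf, in ductal-like cells of C2D, and 153 for Egfr, in fibroblast-like cells of S2D.

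**Figure D2:**
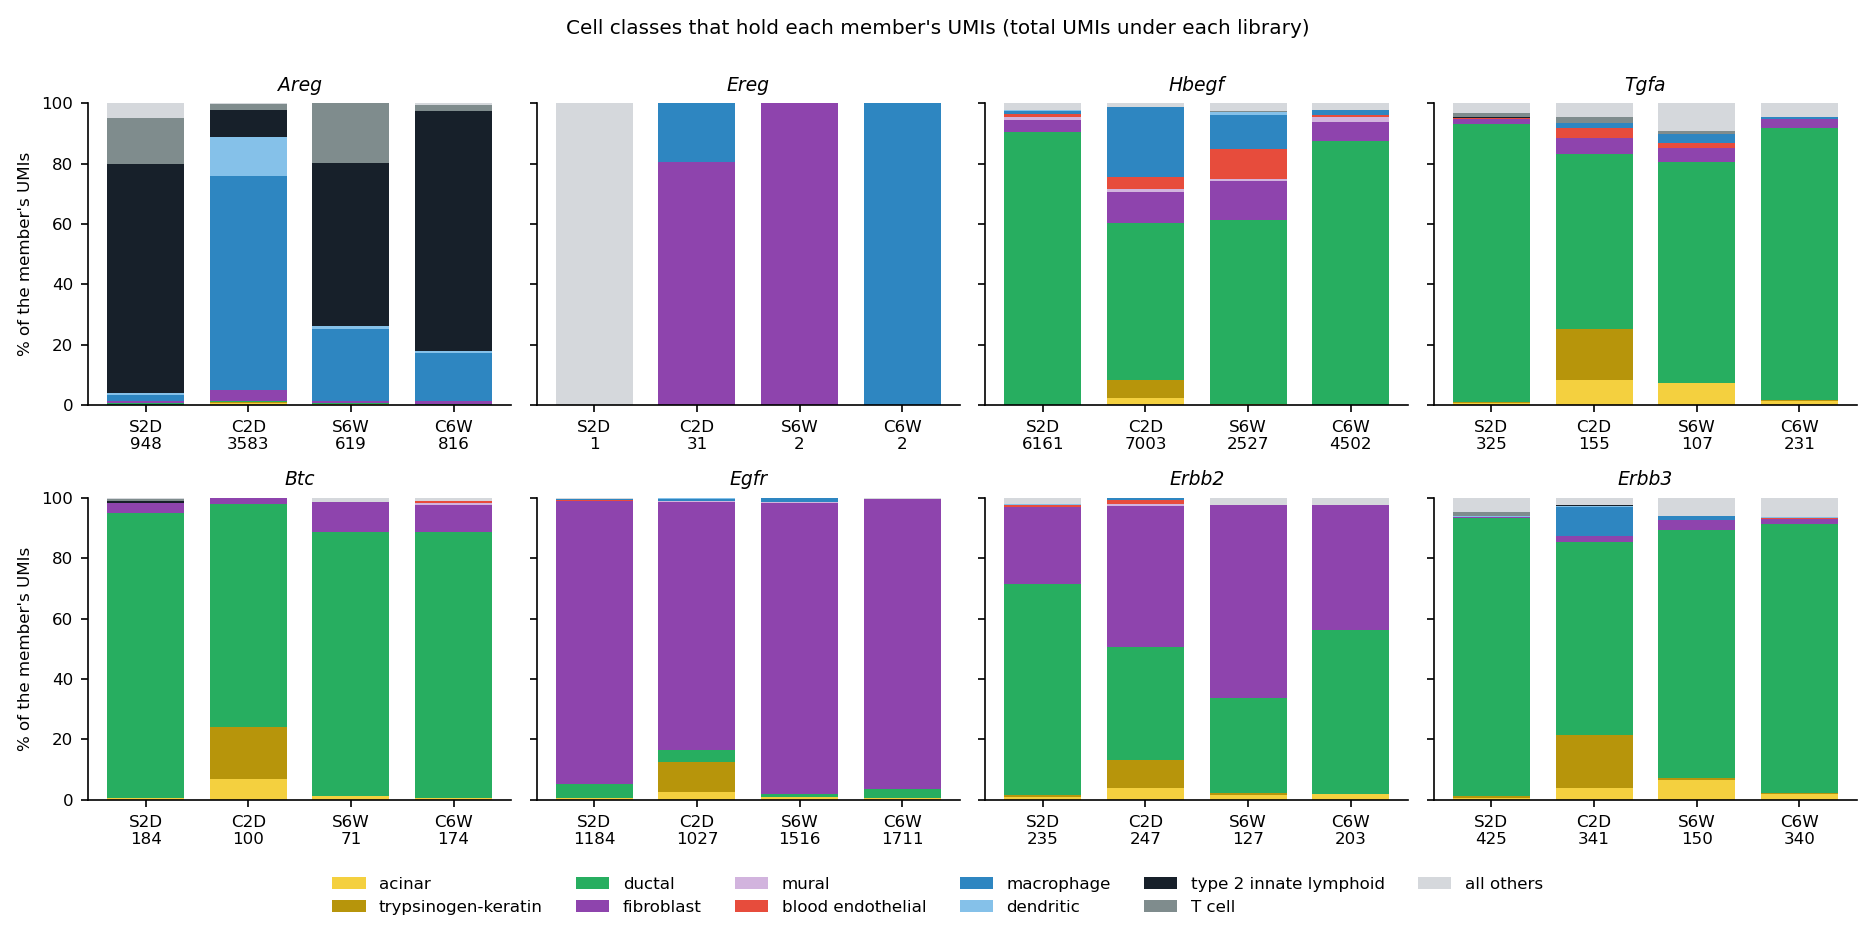
Percent of each member's UMIs that came from each cell class, 1 stacked bar per library, with the total UMIs under each bar. Macrophage-like cells take 70.8% of Areg in C2D, and ILC2-like cells take 54.1 to 79.7% in the other libraries.

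Caerulein was compared with saline at the same time in classes of at least 50 cells in both libraries, for genes with at least 100 UMIs over both. A gene was counted where its level differed at least 2-fold. At 2 days 14 combinations of a member and a class could be measured, of which 4 were at least 2-fold higher in C2D and 3 lower. In acinar-like cells Hbegf, the only member measured, was higher, as were 17.2% of all genes measured there (10.4% were lower). In dendritic-like cells Areg, the only member measured, was higher, beside 3.88% of all genes (2.84% were lower). In fibroblast-like cells 1 of 4 members was higher (Areg) and 1 lower (Egfr), beside 7.67% and 7.54% of all genes. In macrophage-like cells 1 of 2 was higher (Areg) and 1 lower (Hbegf), beside 11.0% and 7.99%. In ductal-like cells 1 of 5 was lower (Tgfa), beside 7.54% of all genes (4.15% were higher). In T-like cells Areg, the only member measured, was within 2-fold, as were all but 4.16% of genes.

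At 6 weeks 11 combinations could be measured, of which 0 were at least 2-fold higher in C6W and 2 lower. In T-like cells Areg, the only member measured, was lower, beside 2.10% of all genes. In macrophage-like cells Hbegf was lower and Areg within 2-fold, beside 5.23% of all genes lower. None of 5 members in ductal-like cells and none of 3 in fibroblast-like cells passed 2-fold, where 0.391% and 1.37% of all genes did in either direction. The 2 saline libraries, which differ in time, also differed from each other at least 2-fold in 3 combinations: Areg in T-like cells, and Areg and Hbegf in macrophage-like cells, all higher in S6W (0.953% and 5.49% of all genes were higher in these classes). In ductal-like and fibroblast-like cells no member differed 2-fold between the saline libraries, beside 0.845% and 1.10% of all genes in either direction. With S2D in place of S6W as the control of C6W, the log2 ratios were -3.27 for Areg in T-like cells, -1.04 for Hbegf in macrophage-like cells and 2.00 for Areg in macrophage-like cells.

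**Figure D3:**
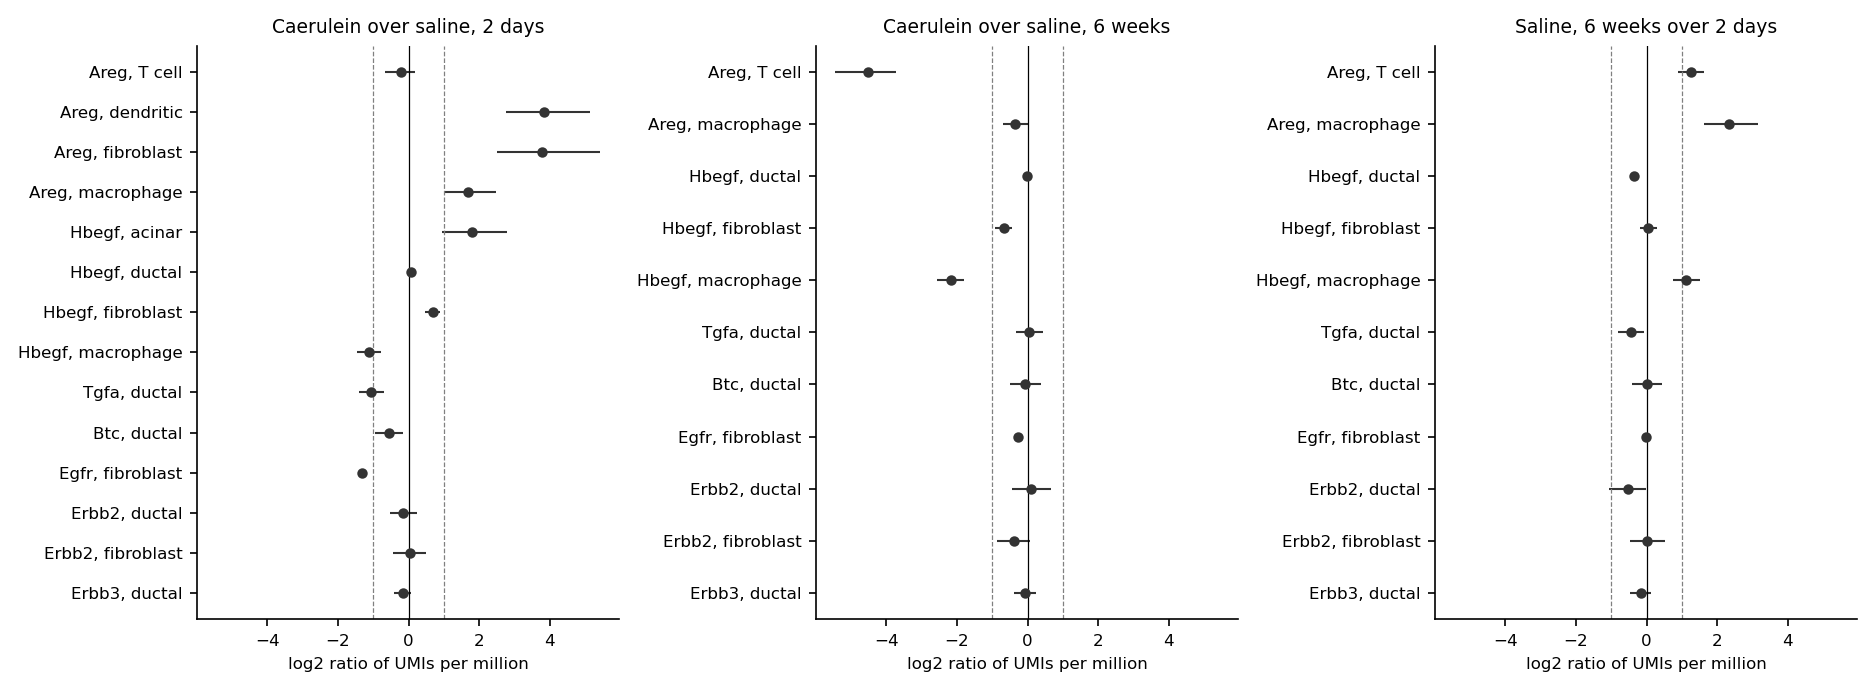
Log2 ratio of the level of each measured member by class, in 3 panels: C2D over S2D, C6W over S6W, and S6W over S2D, with exact 95% intervals for counting error. Dashed lines mark 2-fold. Areg in dendritic-like and fibroblast-like cells lies farthest above at 2 days (3.83 and 3.77), and Areg in T-like cells farthest below at 6 weeks (-4.53).

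Areg, whose product binds Egfr alone among the receptors, was concentrated in ILC2-like cells, the innate lymphoid cells that make type 2 cytokines. Its level there was 2305 (2139 to 2480) in S2D and 1483 (1326 to 1655) in C2D, and 2512 (2250 to 2796) in S6W and 1951 (1803 to 2106) in C6W, from 55, 34, 20 and 45 cells. Each caerulein library was below the saline library of its time, by less than 2-fold and with intervals that do not overlap. The intervals leave out the spread between cells, and single cells weighed much. In 1 cell lay 161 of 718 UMIs in S2D, 44 of 322 in C2D, 76 of 335 in S6W and 86 of 650 in C6W. The levels without these cells were not computed, so whether the libraries stay apart without them was not tested. ILC2-like cells were under 50 per library in 3 of the libraries, so they were not among the combinations counted. In S2D the next classes were natural killer-like cells at 122 (84.7 to 169), with 33 of 35 UMIs in 1 cell, and T-like cells at 119, which overlap, and then macrophage-like and dendritic-like cells at 23.8 and 7.05, which also overlap. In C2D T-like and dendritic-like cells, at 102 and 100.1, overlapped and macrophage-like cells were lower at 76.3. Ductal-like cells had 0.325 to 1.65 in the 4 libraries, and acinar-like cells had 9.54 in C2D, with 25 of 28 UMIs in 1 cell, and 1.29 to 3.25 elsewhere.

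Areg was found in most ILC2-like cells: 43 of 55 in S2D and 31 of 34 in C2D, and 16 of 20 in S6W and 39 of 45 in C6W had at least 1 UMI. The cell with the most held 161 UMIs in S2D and 44 in C2D, and 76 in S6W and 86 in C6W. With each cell thinned to 1000 UMIs, the share of cells with a UMI was 63.0% in S2D and 52.9% in C2D, and 60% in S6W and 50% in C6W. B-like cells, in which the gene is not expected, had 12 UMIs in 4 of 752 cells in S2D and none in S6W and C6W. A second clustering of the lymphoid cells split most ILC2-like cells into 2 subclusters, of which that led by Calca, Areg and Csf2 had Areg levels of 3264 in S2D and 1574 in C2D, and 3627 in S6W and 2421 in C6W. The other, led by Gata3, Ccl1 and Areg, had 1081, 1146, 1774 and 1267. Its C2D level came from 22 UMIs in 4 cells. Of its 97 UMIs in S6W, 73 were in 1 cell, which the first clustering had named T-like. This subcluster also held UMIs of T cell genes in S2D (16 of Cd3e and 13 of Cd4), so it was not made of ILC2-like cells alone.

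In macrophage-like cells, Areg stood at 23.8 (13.9 to 38.1) in S2D and 76.3 (73.4 to 79.4) in C2D, and 121.0 (102 to 142) in S6W and 95.1 (79.5 to 113) in C6W. S2D was the low library, and C2D was 3.20-fold above it (log2 ratio 1.68, 1.0 to 2.46) but below S6W. The S2D level rested on 17 UMIs in 5 of 86 cells, with 10 of the UMIs in 1 cell. Against its own saline library, C6W stood at a log2 ratio of -0.35 (-0.70 to 0.00). In C2D 273 of 2354 cells held a UMI and 80 held at least 10. In S6W and C6W 17 of 134 and 17 of 119 cells held a UMI, and the 5 cells with the most held 81.9% and 69.2% of all UMIs. After thinning to 1000 UMIs, 2.44% of macrophage-like cells had a UMI in S2D and 4.25% in C2D, and 4.62% in S6W and 4.31% in C6W, with a log2 ratio of 0.99 at 2 days.

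Among macrophage clusters, number 4, led by Ccl4 and MHC class II genes, was the only one with at least 50 cells in all 4 libraries. Its Areg level was 6.00 (1.24 to 17.6) in S2D and 126 (114 to 139) in C2D, and 183 (153 to 218) in S6W and 120.0 (99.1 to 144) in C6W. S2D stood apart from the other libraries there, on 3 UMIs in 61 cells. The clusters found almost only in C2D had 94.7 (number 22, led by Lyz2 and C1qc, 1140 cells), 49.7 (number 32, the same leading genes and Trem2, 819 cells) and 23.9 (number 31, 79 cells). Cluster 25, led by Retnla and Pf4, had 48.2 in S6W. Markers of ILC2-like cells summed to a level of 47.7 in S2D and 45.4 in C2D, and 63.3 in S6W and 50.5 in C6W macrophage-like cells, and most of these UMIs were of Rora and Il7r (13 and 14 in S2D, 565 and 871 in C2D, 40 and 26 in S6W, 24 and 24 in C6W). Of the other markers of the list, Gata3, Il13, Il5, Calca and Il17rb were at 0 in S2D and S6W, and all of these but Gata3 (5 UMIs) were at 0 in C6W. In C2D they had 5, 2, 1, 12 and 2 UMIs in 2354 cells, and Il1rl1 and Ptgir had 23 and 29.

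In dendritic-like cells, Areg stood at 7.05 (2.83 to 14.5) in S2D and 100.1 (91.2 to 110) in C2D, a 14.2-fold difference (log2 3.83, 2.77 to 5.15). The S2D value was 7 UMIs in 2 of 64 cells, 6 of them in 1 cell, and the C2D value 460 UMIs in 58 of 328 cells. Thinned to 1000 UMIs, 3.17% of S2D and 4.89% of C2D cells had a UMI. In smaller numbers of cells, S6W and C6W stood at 11.4 and 6.54, from 5 UMIs in 1 cell each. The C2D signal lay in cluster 5, at 145 (132 to 159) against 13.4 (5.40 to 27.7) in S2D. This cluster carried markers of type 2 conventional dendritic cells and, nearly as strongly, of migratory dendritic cells. Their mean log2 rises over the median cluster were 4.95 and 4.37. Cluster 10, with markers of type 1 conventional dendritic cells, held 2 UMIs in 84 cells of C2D and none in 24 cells of S2D. The markers of type 2 conventional dendritic cells summed to 994 in S2D and 1802 in C2D within the dendritic class, so the mix of the class moved with this result. Its part was not tested, and the S2D value of cluster 5 rests on the same 7 UMIs in 2 cells.

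In fibroblast-like cells, Areg was rare: its level was 0.689 (0.224 to 1.61) in S2D and 9.38 (7.83 to 11.2) in C2D, and 0.310 in S6W and 0.531 in C6W. The 2-day difference was 13.6-fold (log2 3.77, 2.51 to 5.42), from 128 against 5 UMIs. It came from few cells, since 15 of 586 C2D cells held a UMI and the 5 with the most held 83.6% of the UMIs. Those 5 held 40, 19, 18, 18 and 12 Areg UMIs beside 723 to 2844 UMIs of fibroblast markers 4 to 17 UMIs of macrophage markers and 0, 4, 16, 5 and 1 UMIs of ILC2 markers, against a median of 1023.5, 10 and 3 over all C2D fibroblast-like cells. The cell with 19 also held 42 UMIs of type 2 dendritic markers and a doublet score of 0.343, the only one of the 5 above 0.1.

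In T-like cells, Areg stood at 119 (101 to 140) in S2D and 102 (79.7 to 129) in C2D, and 285 (237 to 341) in S6W and 12.4 (6.77 to 20.8) in C6W. The 2-day libraries overlapped (log2 -0.22, -0.65 to 0.20), and C6W was 23.0-fold below S6W (log2 -4.53, -5.44 to -3.72). Of the 122 UMIs of S6W, 73 were in 1 cell, which the second clustering placed among the ILC2 subclusters. Among T-like cells that this clustering also named T cells, the levels were 92.8 (75.6 to 113) in S2D and 105 (81.5 to 133) in C2D, and 119 (87.9 to 157) in S6W and 12.7 (6.95 to 21.3) in C6W. On that definition 3 libraries overlapped and C6W lay below all of them, with 14 UMIs in 7 of 138 cells against 49 in 7 of 56 in S6W (log2 -3.25, -4.22 to -2.37). With 63 UMIs over both libraries, this value is under the minimum of 100 used for the counts.

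Among the T cell subclusters of the second clustering, different ones held most Areg UMIs in different libraries. Subcluster 5, marked by Foxp3, Ctla4 and Tnfrsf4, genes of regulatory T cells, had 22 UMIs in 11 cells in S2D and 1 in 2 cells in C2D, and 38 in 9 cells in S6W and 5 in 6 cells in C6W. As levels these were 256 (161 to 388), 117 (2.97 to 652), 841 (595 to 1155) and 92.8 (30.1 to 217). In S2D more UMIs lay in subcluster 10, led by T cell genes and Pclaf, a gene of dividing cells, with 67 in 2 of 4 cells, and it held 1 in 9 cells of C2D and 4 in 3 cells of C6W. Those 4 S2D cells also held 13 Foxp3 and 20 Il1rl1 UMIs, against 10 and 10 in the 11 S2D cells of subcluster 5. Subcluster 8, marked by Ccr7 and Lef1, genes of naive T cells, held 0 Areg UMIs in 42, 15 and 39 cells of S2D, S6W and C6W. Subcluster 7, made of 65 C2D cells and 4 of C6W, held most of the C2D UMIs, 63 in 10 cells, at a level of 161 (124 to 206). Its C2D cells also held 11 Foxp3, 43 Cd4, 50 Cd8a and 57 Trdc UMIs. Whether Areg and Foxp3 lay in the same cells was not tested.

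**Figure D4:**
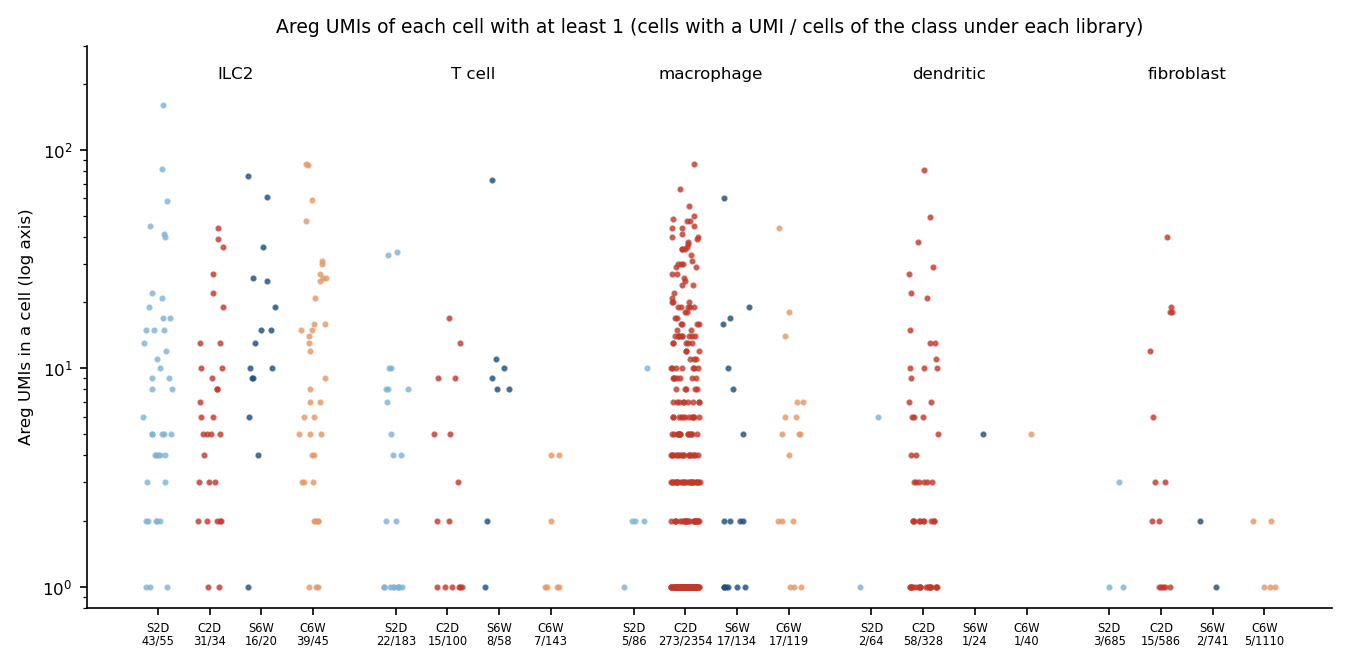
Areg UMIs in each cell with at least 1, by library, on a logarithmic axis, for ILC2-like, T-like, macrophage-like, dendritic-like and fibroblast-like cells. Most cells lie at a few UMIs, and single cells reach 161 (ILC2-like, S2D), 73 (T-like, S6W), 86 (macrophage-like, C2D), 81 (dendritic-like, C2D) and 40 (fibroblast-like, C2D).

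Ereg, a neighbour of Areg on chromosome 5 that encodes a ligand of Egfr and Erbb4, was almost absent: the cells analysed held 1 UMI in S2D and 31 in C2D, and 2 in S6W and 2 in C6W. Of the C2D UMIs, 25 were in 7 of 586 fibroblast-like cells (level 1.83, 1.19 to 2.70), with at most 10 in 1 cell, and 6 in 2 macrophage-like cells. In S2D 0 of 685 fibroblast-like cells had a UMI. In C2D 3 of the 7 fibroblast-like cells with Ereg also held Areg. Other classes and libraries gave too few UMIs to compare.

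Hbegf, whose product binds Egfr and Erbb4, was a ductal gene in every library. Its level in ductal-like cells was 815 (794 to 837) in S2D and 855 (828 to 883) in C2D, and 643 (611 to 675) in S6W and 638 (618 to 658) in C6W. The libraries of the same time were close to each other (log2 0.07, 0.01 to 0.13 at 2 days, and -0.01 at 6 weeks), while the later libraries were lower (S6W over S2D -0.34). Per cell, without scaling to depth, the mean was 7.21 UMIs in S2D and 20.6 in C2D, and 6.99 in S6W and 7.09 in C6W. Of S2D ductal-like cells 59.9% had a UMI, against 0.266% of S2D B-like cells, with a median of 8630 and 6195.5 UMIs. One S2D cell held 930 Hbegf UMIs, and without the UMIs of the cell with the most in each library the level was 679 in S2D and 794 in C2D, and 611 in S6W and 622 in C6W. The log2 ratio was then 0.23 (0.16 to 0.29) at 2 days and -0.15 (-0.24 to -0.07) for S6W over S2D, so that part of the difference between the saline libraries rested on 1 cell.

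Within the ductal class, cluster 3 stood above cluster 2 in each library with at least 20 cells of both, at 1101 against 490.5 in S2D, 831 against 558.5 in S6W and 881 against 484 in C6W. Ductal-like cells of C2D were nearly all in cluster 24, led by Lcn2 and Spp1, at 863. The next classes of at least 50 cells in C2D were blood endothelial-like cells, at 324 (287 to 365), and the cluster led by trypsinogen genes and keratins, at 153 (139 to 168), and these intervals do not overlap. In blood endothelial-like cells the level was 191 (141 to 253) in S2D and 284 (250 to 321) in S6W. Mural-like cells, with 23 and 24 cells, stood at 341 (268 to 428) in S2D and 256 (201 to 321) in C2D.

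In acinar-like cells, the enzyme-secreting cells of the pancreas, Hbegf stood at 15.5 (8.02 to 27.1) in S2D and 53.8 (45.8 to 62.9) in C2D, and 8.72 (3.99 to 16.5) in S6W and 9.74 (3.57 to 21.2) in C6W. C2D was above the other libraries, 3.47-fold over S2D (log2 1.80, 0.95 to 2.78). UMIs were found in 80 of 469 cells in C2D and in 10 of 413, 8 of 439 and 6 of 348 in the others. All C2D acinar-like cells were in cluster 33, led by Reg3b and trypsinogen genes, and all but 2 of the other libraries in cluster 7. Ductal markers summed to 1360 in S2D and 6487 in C2D, and 1323 in S6W and 1563 in C6W in these cells, and macrophage markers to 156, 1119, 158 and 256. Whether RNA of other cells takes part in the Hbegf level was not tested.

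In macrophage-like cells, Hbegf stood at 107 (83.9 to 133) in S2D and 48.7 (46.3 to 51.1) in C2D, and 233 (207 to 262) in S6W and 51.9 (40.6 to 65.5) in C6W. Both caerulein libraries were below their saline library, by 2.19-fold at 2 days (log2 -1.13, -1.46 to -0.78) and 4.49-fold at 6 weeks (-2.17, -2.56 to -1.79). Cluster 25, led by Retnla, Pf4 and Ccl7, held 12 of 86 S2D, 1 of 2354 C2D, 56 of 134 S6W and 8 of 119 C6W cells. Its Hbegf level was 482 in S6W. In cluster 4, present in all libraries, the levels were 98.1 (72.6 to 130), 41.2 (34.3 to 49.1), 93.0 (71.7 to 119) and 53.8 (40.2 to 70.5), so that both caerulein values were below both saline values there. The values of cluster 4 were more than 2-fold apart at 2 days but less than 2-fold apart at 6 weeks. The part of the cluster mix in the class values was not tested. In the whole class the 2-day difference was under 2-fold without the cell with the most UMIs (-0.86), with free RNA subtracted (-0.55) and per cell (-0.36).

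In fibroblast-like cells, Hbegf stood at 32.5 (28.5 to 36.9) in S2D and 52.3 (48.5 to 56.2) in C2D, and 33.8 (30.2 to 37.6) in S6W and 21.1 (18.7 to 23.7) in C6W. C2D was the highest and C6W the lowest, and the saline libraries overlapped (log2 0.06). The log2 ratio was 0.69 (0.47 to 0.90) at 2 days and -0.68 (-0.92 to -0.45) at 6 weeks. With free RNA subtracted these were 2.17 and -1.56.

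Tgfa and Btc, both ligands of Egfr, were found mainly in ductal-like cells. Tgfa stood at 43.9 (39.0 to 49.1) in S2D and 21.2 (17 to 26.1) in C2D, and 32.6 (25.8 to 40.7) in S6W and 33.8 (29.3 to 38.7) in C6W. C2D was the lowest, with an interval that overlapped only that of S6W, and its log2 ratio to S2D was -1.05 (-1.41 to -0.70), a 2.07-fold difference. At 6 weeks the ratio was 0.05 (-0.33 to 0.45). The 2-day value lay at the edge of the threshold and within 2-fold under TMM scaling (-0.93) and DESeq2 size factors (-0.92). Per cell the sign turned, with 0.511 UMIs in C2D and 0.388 in S2D (log2 0.40, 0.04 to 0.74), since C2D ductal-like cells held more UMIs of all genes.

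Btc stood at 25.5 (21.9 to 29.6) in S2D and 17.4 (13.7 to 21.9) in C2D, and 25.9 (19.9 to 33.2) in S6W and 24.8 (21.1 to 29.1) in C6W ductal-like cells. C2D was lowest, with a log2 ratio of -0.55 (-0.96 to -0.15) that stayed within 2-fold, and the other libraries overlapped. At 6 weeks it was -0.06 (-0.50 to 0.39). In the trypsinogen and keratin cluster, of which C2D gave 302 cells, Tgfa stood at 9.11 (5.95 to 13.3) and Btc at 5.95 (3.47 to 9.53), below the ductal-like cells of the same library.

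Egfr, the receptor of all 5 ligands, was highest in fibroblast-like cells: 153 (144 to 162) in S2D and 61.9 (57.7 to 66.2) in C2D, and 151 (143 to 159) in S6W and 125 (119 to 131) in C6W. C2D was below all other libraries, 2.47-fold under S2D (log2 -1.31, -1.44 to -1.18). At 6 weeks C6W was slightly below S6W (-0.28, -0.38 to -0.17), and the saline libraries were level (-0.02). The share of fibroblast-like cells with a UMI was 73.6% in S2D and 71.2% in C2D, and 78.5% in S6W and 71.6% in C6W. Thinned to 1000 UMIs per cell these shares were 14.8%, 4.79%, 12.3% and 13.5%. Counted per cell, the mean was 1.62, 1.44, 1.97 and 1.48 UMIs, and the 2-day log2 ratio was -0.17. Whether the deeper C2D cells held more RNA or were captured better cannot be told apart.

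Among fibroblast clusters, Egfr stood at 166 (S2D), 147 (S6W) and 128 (C6W) in cluster 8, led by Dcn, Ccl11 and Smoc2. Cluster 9, led by Pi16 among others, had 135, 171 and 116, and cluster 20 had 181, 198 and 157. Cluster 28, led by collagen genes and holding 539 of the 586 C2D cells, stood at 62.3. Cluster 13, led by Ptn and Gdf10 among others, was low in all libraries, at 35.7 in S2D and 27.6 in C2D, and 56.1 in S6W and 57.6 in C6W. C2D cells outside clusters 28 and 13 were 10 in cluster 8 and 10 in cluster 9, too few to set a level within those clusters.

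Outside fibroblast-like cells, Egfr was low. In S2D the acinar-like (10.3, 4.47 to 20.4), ductal-like (7.77, 5.82 to 10.2) and macrophage-like cells (7.01, 2.28 to 16.4) had overlapping intervals, 14.8-fold or more below fibroblast-like cells. In C2D the order was fibroblast-like, then the trypsinogen and keratin cluster at 35.4 (28.8 to 43.0), then ductal-like (9.66, 6.93 to 13.1) and acinar-like cells (9.20, 6.06 to 13.4). The trypsinogen and keratin cluster, with 101 UMIs in 56 of 302 cells, stood apart from both, and the latter overlapped. It gave 9.83% of the Egfr UMIs of C2D. Ductal-like cells, the main class of Hbegf, Tgfa and Btc, had 6.68 to 9.66 as the level of Egfr over the 4 libraries.

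Erbb3, the receptor of neuregulins, stood at 57.4 (51.8 to 63.3) in S2D and 51.3 (44.8 to 58.6) in C2D, and 51.4 (42.7 to 61.3) in S6W and 49.2 (43.8 to 55.0) in C6W ductal-like cells. All 4 intervals overlapped, with log2 ratios of -0.16 (-0.41 to 0.08) at 2 days and -0.06 (-0.37 to 0.25) at 6 weeks. Erbb2 stood at 24.1 (20.5 to 28), 21.7 (17.5 to 26.6), 16.7 (11.9 to 22.8) and 17.9 (14.7 to 21.5), with ratios of -0.15 (-0.54 to 0.23) and 0.10 (-0.44 to 0.66). Erbb2 was also found in fibroblast-like cells, at 8.26 in S2D and 8.43 in C2D, and 8.36 in S6W and 6.37 in C6W, with ratios of 0.03 (-0.43 to 0.50) and -0.39 (-0.85 to 0.07). In the trypsinogen and keratin cluster of C2D, Erbb3 stood at 21.0 (16.0 to 27.1) and Erbb2 at 8.06 (5.11 to 12.1).

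Other genes of the pathway were read from lists. Of 6 other ligand genes, Nrg1, a neuregulin that binds Erbb3 and Erbb4, was the only one with enough UMIs at 2 days. It was higher in fibroblast-like cells of C2D, at 8.50 against 0.689 (116 and 5 UMIs, log2 3.63, 2.36 to 5.28), and in macrophage-like cells, at 16.8 against 4.20 (559 and 3 UMIs, log2 2.00, 0.45 to 4.28). Egf itself, found in acinar-like cells, had 13 UMIs in C2D and 61 in S2D, levels of 4.43 and 78.9, under the minimum to be counted, and at 6 weeks 69 and 103 UMIs (log2 0.17, -0.30 to 0.62). Nrg2 was higher in fibroblast-like cells of C6W, at 10.5 against 3.20 (log2 1.71, 1.14 to 2.32), beside 0.385% of all genes there. Erbb4, the remaining receptor, was lower in ductal-like cells of C2D, at 5.89 against 20.5 (log2 -1.80, -2.48 to -1.18), and level at 6 weeks (-0.12, -0.63 to 0.40).

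Of 10 genes for proteases that release ligands and their regulators, 7 could be measured in fibroblast-like cells at 2 days. Of these, 1 was higher and 0 lower, beside 7.67% and 7.54% of all genes (median log2 -0.10, all genes -0.09). The higher one, Adam12, a membrane metalloprotease, stood at 82.7 in C2D and 1.52 in S2D (1129 and 11 UMIs, log2 5.77, 4.93 to 6.78). In macrophage-like cells 1 of 7 was higher, Adam8 (1661 and 11 UMIs, log2 1.70), and 1 lower, Rhbdf1 (-1.49, -2.58 to -0.15), near the shares of all genes (11.0% and 7.99%). In dendritic-like cells 1 of 4 was higher, Adam15 (1.06), and 1 lower, Adam8 (-1.21), beside 3.88% and 2.84% of all genes. In acinar-like cells the 1 measured, Adam10, was higher (1.49, 0.64 to 2.48), as were 17.2% of all genes, while none of 7 passed 2-fold in ductal-like cells.

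Of 14 genes of receptor feedback and turnover, 13 were measured in fibroblast-like cells at 2 days and 3 were lower, beside 7.54% of all genes, with a median of -0.41 against -0.09 for all genes. These were Errfi1, which inhibits the receptor kinase (275 against 606, log2 -1.14), and the Sprouty genes Spry1 (-1.06) and Spry4 (-1.22), which restrain the kinase cascade below the receptors. In ductal-like cells 1 of 12 was lower, about the share of all genes there (7.54%): Lrig1, which promotes loss of the receptors (51 and 177 UMIs, log2 -1.11). In macrophage-like cells 2 of 9 were higher, beside 11.0% of all genes, Spry2 (163 and 1 UMIs, -0.69 to 7.12 around 1.81) and Rnf41 (504 and 5 UMIs, -0.12 to 2.74 around 1.11), both with intervals that reach 0. In natural killer-like cells the 1 measured gene, Spry2, was lower (-1.35), beside 4.26% of all genes there. Of 7 adaptor genes, Gab1 in macrophage-like cells (1.06) was the only one past 2-fold, where 11.0% of all genes were higher.

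At 6 weeks few genes of these lists passed 2-fold, as was so for all genes. In ductal-like cells 0 of 27 measured genes of the receptor, protease, adaptor and feedback lists passed 2-fold, beside 0.391% of all genes. Spred1, an inhibitor of the kinase cascade, was lower in macrophage-like cells (65.1 against 152, log2 -1.22), as were 5.23% of all genes. S2D stood at 71.5 there and S6W was thus the high library (log2 1.09 over S2D). Nrg2 was the only gene of the lists past 2-fold in fibroblast-like cells, beside 1.37% of all genes.

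Immediate early genes, which dissociation of tissue can raise and which lie downstream of many receptors, were read beside the members as a control list of 16 genes. At 2 days their median log2 ratio was -0.93 in fibroblast-like cells (7 of 16 lower, 1 higher), -0.72 in ductal-like (3 lower, 1 higher), -0.29 in macrophage-like (6 lower, 2 higher), 0.19 in dendritic-like (2 lower, 1 higher) and -0.04 in acinar-like cells (1 of 14 lower, 1 higher). Of all genes, 7.54% were lower and 7.67% higher in fibroblast-like, 7.54% and 4.15% in ductal-like and 7.99% and 11.0% in macrophage-like cells. In dendritic-like cells these shares were 2.84% and 3.88%, and in acinar-like cells 10.4% and 17.2%. By log2 ratio, Fos stood at -1.12 in fibroblast-like, -0.75 in ductal-like and -0.01 in macrophage-like cells, Jun at -0.84, -0.96 and -1.24, and Atf3 at -1.06, -0.33 and -1.10. So in fibroblast-like cells this list moved the same way as Egfr, Errfi1 and the Sprouty genes, in ductal-like cells the same way as Tgfa, and in macrophage-like cells the same way as Hbegf at both times. Among those that went against the list at 2 days were Areg (3.77) and Hbegf (0.69) in fibroblast-like cells and Areg (1.68) in macrophage-like cells. The part of the list in any of these values was not tested. At 6 weeks its median was 0.25 in ductal-like, 0.21 in fibroblast-like and -0.41 in macrophage-like cells, where Ier3 (-1.13) and Zfp36 (-1.01) were lower and Hspa1b (1.40) was higher.

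Over the 32 sums of a class in a library, the genes with the pattern of level most like each member were Cd200r1, Tnfsf14 and Cd101 for Areg (Pearson r of 0.93, 0.90 and 0.88), Ctnnd1, Ttc12 and Map4k3 for Hbegf (0.94, 0.91 and 0.91) and Entpd2, Vldlr and Dnm1 for Egfr (0.96, 0.94 and 0.94). For Btc Cldn23 and Pak6 are given (0.99 and 0.98), for Tgfa Evpl, Klhdc7a and Bche (0.95 each), for Erbb2 Pamr1, Dync2li1 and Garem1 (0.97, 0.97 and 0.96) and for Erbb3 Mlph, Krt23 and Ripk4 (0.98 to 0.99). Ereg had too few UMIs. The sums share libraries and depth, so these values describe likeness only. With a pseudocount of 1 in place of 10, the leading gene remained for Hbegf and Egfr and changed for the other 5.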

How the data were processed

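The members and gene lists were chosen with earlier results of these data known. The authors deposited raw counts of UMIs per gene and barcode. Their tools were Cell Ranger 3.0.2 and FastQC, and their build mm10, per the submitters' processing notes. Groups were read from the titles.

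Cells needed 500 or more UMIs, 200 or more genes and no more than 20% mitochondrial UMIs. Scrublet doublets (38 of S2D, 19 of C2D, 15 of S6W, 32 of C6W) were left out. They were 0.408% of C2D, so an alternative took 0.8% per 1000 barcodes. All libraries were clustered together in scanpy 1.11.5 (Python 3.11.15), without the members, on 2000 variable genes, 40 principal components and 15 neighbours by Leiden at resolution 1, into 34 clusters, which were named from marker lists. After the clusters were seen, a cluster led by haemoglobin genes was left unnamed, and a cluster led by trypsinogen genes with keratins was kept as its own class. T-like, natural killer-like and ILC2-like cells were clustered a second time.

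Counts were summed by class and library and divided by the UMIs outside digestive enzyme genes. Intervals at 95% are exact Poisson (levels), exact conditional binomial (ratios) and Clopper-Pearson (shares). A gene with 0 UMIs in 1 library was given 3 counts there. Shares at equal depth came from cells thinned to 1000 UMIs, without shallower cells. The ratio method was tested on simulated data. Named were all 8 members, up to 3 highest and 3 lowest genes past 2-fold of the pathway lists per class, Fos, Jun and Atf3, and the 3 genes most like each member (at least 200 UMIs, Pearson r of log2 levels with a pseudocount of 10). Mitochondrial, ribosomal, haemoglobin, sex-linked and clone-named genes were not named, and 1 gene is not reported here. Single clusters and cells described were chosen after their values were seen. Alternatives were TMM (edgeR 4.0.16, R 4.3.3), DESeq2 1.42.0 size factors, plain CPM, counts per cell, minimums of 20 and 400 UMIs, stricter cell filters, thinning, doublet rules, free RNA subtraction, other clusterings and S2D as the control of C6W. Free RNA subtraction took the sum of all analysed cells of a library as the pool, scaled to the digestive enzyme UMIs of each class. It left acinar-like cells and the trypsinogen and keratin cluster as they were. Alternatives added after seeing the data were the trypsinogen and keratin cluster counted with acinar-like or ductal-like cells, leaving out the cell with the most UMIs, and leaving out T-like cells placed in ILC2 subclusters. Figures were drawn with matplotlib 3.10.9.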

Additional observations from a re-analysis of the deposited data

Results flagged for a closer look

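Hbegf in fibroblast-like cells stood out because caerulein and saline differed in opposite directions at the 2 times. The log2 ratio was 0.69 at 2 days and -0.68 at 6 weeks, a gap of 1.37. The difference between the times was not tested, since each group was 1 library. With free RNA subtracted the ratios were 2.17 and -1.56, in the same directions. Their size depends on the pool taken as free RNA, which was the sum of all analysed cells of the library and not empty droplets.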

How the results depend on the processing

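No paired analysis was possible because each group was 1 library numbered 1, so the groups shared fewer than 2 replicate numbers. For the same reason no replicate could be left out. The 4 combinations at least 2-fold higher at 2 days became 9 when UMIs were counted per cell, 2 with a minimum of 400 UMIs, 0 with cells thinned to 1000 UMIs and 2 at Leiden resolution 2. The 3 lower ones became 0 per cell, 5 with a minimum of 20 UMIs and 1 after thinning. At 6 weeks the 2 lower ones became 0 with a minimum of 400 UMIs, 0 after thinning, 1 without the cell with the most UMIs and 1 without T-like cells placed among ILC2 subclusters. The 0 higher ones became 1 with S2D as the control. Thinning and stricter minimums left 2 to 7 combinations to count, and counting per cell raised the median log2 ratio of all genes at 2 days by 1.45 (to 1.30) in ductal-like and by 1.14 (to 1.05) in fibroblast-like cells. The log2 ratio of Tgfa in ductal-like cells at 2 days turned from -1.05 to 0.40 per cell. Some ratios kept their direction and size past 2-fold under every alternative that gave a value. These were Areg in T-like cells at 6 weeks (-4.89 to -3.25), Areg in dendritic-like cells (1.67 to 6.36), Areg in fibroblast-like cells (3.76 to 5.33), Hbegf in acinar-like cells (1.14 to 3.54) and Hbegf in macrophage-like cells at 6 weeks (-2.77 to -1.04). Values were read also where the gene fell under the minimum of UMIs. Free RNA subtraction left acinar-like cells as they were, so it could not change Hbegf there. Areg in dendritic-like and fibroblast-like cells had a value under 16 alternatives. No alternative held the mix of clusters within a class fixed. The size past 2-fold was lost by Areg in macrophage-like cells after thinning (0.99), Egfr in fibroblast-like cells per cell (-0.17), Hbegf in macrophage-like cells at 2 days under 4 of 17 alternatives (up to -0.36) and Tgfa under 5 of 17. Depth limits Areg in S2D, where 17 UMIs in macrophage-like, 7 in dendritic-like and 5 in fibroblast-like cells set the ratios, and Ereg throughout.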

Other observations

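Hbegf was also found in the unnamed cluster led by haemoglobin genes, which carried Tm4sf4, Ambp, Krt8 and Foxj1 among its leading genes. Its level there was 635 (529 to 758) in 27 cells of S2D and 93.2 (70.2 to 121) in 40 cells of S6W, and these intervals do not overlap. The cells of the 2 libraries differed in median depth (6629 and 16790 UMIs) and median mitochondrial share (3.87% and 0.19%). The part of a different mix of cells in these levels was not tested. In plasma cell-like cells of S2D, with a median of 32422 UMIs per cell, no Areg UMI was found in 102 cells, which allows a level of up to 0.828 (3 counts).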
